A study of Sus scrofa with 30 samples.

Results

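Pig cerebral cortex taken 180 min after the return of spontaneous circulation (ROSC) was compared with cortex taken 30 min after it, in animals given saline. The comparison used 6 of the 30 arrays of the series, 3 for each time, chosen by their titles, and the 3 arrays of the 60 min saline group only placed the intermediate level. The animals were Swedish triple breed farm pigs of both sexes, prepubertal, 12 to 14 weeks old and 25.8 ± 1.3 kg in weight, under pentobarbital anaesthesia. Ventricular fibrillation was induced with an electric current. The saline groups (SAL30, SAL60 and SAL180 below) had 12 min of untreated arrest and then 8 min of mechanical chest compression before a countershock. They received normal saline at 55 mL/kg/h from 1 min after resuscitation began until 50 min after ROSC. The infusion was thus still running at 30 min and had ended before the 60 and 180 min samples. The methylene blue groups (MB30 and MB180) differed by the addition of 7.5 mg/kg/h of methylene blue, a dye that inhibits guanylate cyclase and nitric oxide synthase, to the same saline. The controls (CA0) were anaesthetised pigs whose brains were removed at 0 min of untreated arrest, with no resuscitation. Each group held 3 arrays, labelled as biological replicates, and every brain was sampled once, so a difference between times is a difference between animals.

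When blood flow returns after arrest, brain tissue passes through successive waves of transcription. Immediate early genes, which need no new protein for their induction, include transcription factors, chemokines and phosphatases that shut off kinase signalling, and their mRNAs are short-lived. Later waves include factors such as the C/EBP family, chaperones that bind misfolded proteins, and growth arrest genes. The cortex is bulk tissue of neurons, glia and vessels, so fewer cells of a type and less RNA per cell cannot be told apart in any value below.

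Values are the deposited intensities of 1-colour Affymetrix porcine arrays, in arbitrary units on a linear scale, with 1 value per probe set (a group of short probes for 1 transcript). Changes are differences of log2(intensity + 16) between the group means, 180 minus 30 min, and this offset understates the change of dim probe sets. A probe set was called when its adjusted p in limma's moderated test was under 0.05, with a Benjamini-Hochberg adjustment over the 16799 probe sets tested. The arrays held the genes of cortex brightly: SNAP25, a synaptic protein of neurons, read from 7124 to 13170.2 over the 9 saline arrays, and the myelin gene MBP from 13834.5 to 18779.8. The log2 3'/5' signal ratio of the control transcripts, which rises as RNA is degraded, was 1.90 ± 0.62 (SD, n = 3) at 180 min and 1.31 ± 0.075 (SD, n = 3) at 30 min. The groups did not overlap in it, and the exact two-sided permutation p of 0.1 is the smallest that 3 against 3 arrays can give. Replicate 3 at 180 min had the highest ratio, 2.60. Replicate 1 at 30 min stood apart from its group in cell markers and had the lowest mean correlation with its group of all saline arrays, 0.939. Some results that rest on these arrays are given with and without them, and the part of RNA quality or tissue makeup in any result was not tested.

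In all, 110 of 16799 probe sets (0.655%) were called, 70 higher at 180 min (0.417%) and 40 lower (0.238%). At an unadjusted p under 0.05 there were 2271 probe sets (13.5%). The largest falls of named genes were those of the chemokine CXCL2, of ZFAND5 on 1 of its 3 probe sets, of the phosphatase DUSP1 and of the cell cycle gene CKS2. The transcription factor CEBPD, the chaperone HSPB8, and the growth arrest genes GADD45G and GADD45B were among those that rose. The probe sets called higher came to 35 named genes and 34 probe sets without a symbol, and those called lower to 14 named genes and 26 without a symbol. The median change was 0.93 on the log2 scale among those called higher, with a range from 0.47 to 2.06, and -1.06 among those called lower, with a range from -0.45 to -3.24. Over all probe sets tested the median was -0.01. A change beyond 1 in size was found for 27 of the 70 and 24 of the 40. The smallest adjusted p by limma, 1.6e-05, belonged to a probe set without a symbol, which fell by 1.35 ± 0.14 (SE). The arrays of the 2 times did not overlap in any of the 110 called, while 7.95% of all probe sets tested lay wholly higher and 8.2% wholly lower.

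**Figure D1:**
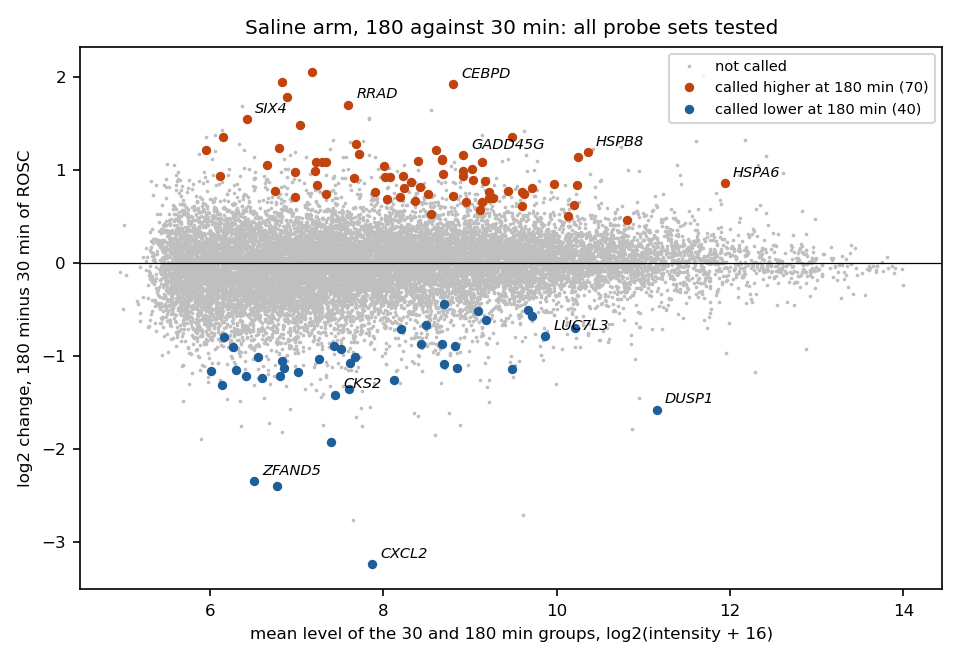
Log2 change between 30 and 180 min in the saline arm (vertical axis) against the mean level of both groups as log2(intensity + 16) (horizontal axis), with 1 point for each of the 16799 probe sets tested; 70 were called higher and 40 lower. Called probe sets occur at low and at high levels, and CXCL2 lies lowest at -3.24.

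These counts moved with single arrays. They were 23 higher and 20 lower without replicate 3 at 180 min, 30 and 18 without replicate 1 at 180 min, and between 50 and 66 higher and 31 and 48 lower without any other 1 of the 6 arrays. Some of these were new calls. Original calls among them were 22 and 18 without replicate 3 at 180 min and 28 and 15 without replicate 1 at 180 min. In the other omissions they were between 34 and 46 higher and 20 and 30 lower. Without both replicate 1 at 30 min and replicate 3 at 180 min, 17 higher and 11 lower were called, 16 and 11 of them among the original calls. With the 3'/5' ratio as a covariate the counts were 39 and 25. A fit to the 6 arrays alone, with 4 residual degrees of freedom in place of 20, called 1 higher and 3 lower. Centring each array on its median gave 100 higher and 33 lower, so that 24.8% of calls were lower in place of 36.4%, and moved the median of all probe sets to 0.06. In each of the 6 single-array omissions, 12 of the 70 and 11 of the 40 stayed called. These included 10 named genes: CXCL2, ZFAND5, CKS2 and LUC7L3 among those that fell, and CEBPD, HSPB8, GADD45G, SIX4, CRISPLD2 and ODC1 among those that rose. The other 39 named genes lost their call without at least 1 array, with a highest adjusted p by limma over the omissions of between 0.0604 and 0.267.

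CXCL2, a chemokine that draws neutrophils through the receptor CXCR2, showed the largest change of all called probe sets. Its intensities were 336, 462 and 424 at 30 min, then 63.2, 67.4 and 114 at 60 min and 23.5, 18.8 and 47.6 at 180 min. Every array at 30 min was above every array at 60 min, and every array at 60 min above every array at 180 min. CXCL2 fell by 3.24 ± 0.43 (SE) on the log2 scale (limma adjusted p = 0.000226), and it was the only one of the named genes that kept its call in a fit to the 6 arrays alone (adjusted p = 0.0238). The CA0 arrays read 64.7, 15.2 and 16.9, so that the levels at 180 min lay within their range. Without both arrays that stand apart the change was -3.63. With the filter on dim probe sets at the 50th percentile CXCL2 was not tested.

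Among phosphatases, DUSP1, which removes the activating phosphates of MAP kinases, had intensities of 4087, 2957 and 3139 at 30 min. At 60 min it read 1235, 1663 and 1521, and at 180 min 1304, 1200 and 887, and the 60 and 180 min groups overlapped. DUSP1 fell by 1.58 ± 0.30 (limma adjusted p = 0.00906), but the call was lost without replicate 3 at 180 min (adjusted p = 0.0686) and without both arrays that stand apart (adjusted p = 0.223). All 3 arrays at 180 min were still above the highest CA0 array, at 880. DUSP11, an RNA phosphatase of the dual-specificity family, stayed between 913 and 973 at 30 min and between 648 and 660 at 180 min and fell by 0.51 ± 0.12 (limma adjusted p = 0.0366), a call lost in each single-array omission (adjusted p up to 0.133).

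CKS2, a small subunit of cyclin-dependent kinases, read 302, 189 and 220 at 30 min and 78.2, 99.5 and 58.1 at 180 min. At 60 min it stood at 187, 137 and 196, above all arrays at 180 min. The change of -1.42 ± 0.23 (limma adjusted p = 0.00289) was -1.07 without both arrays that stand apart, where the call was lost (adjusted p = 0.137). ZFAND5, a ubiquitin-binding zinc finger protein that stimulates the proteasome, fell by 2.35 ± 0.39 on 1 of its 3 probe sets (limma adjusted p = 0.00289), from 147, 130 and 127 to 32.4, 8.36 and 5.93. Its other probe sets changed by -0.12 and 0.04 with adjusted p of 0.866 and 0.91 by limma, so the probe sets of ZFAND5 disagree. The call was lost without both arrays that stand apart (adjusted p = 0.0786).

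LUC7L3, a splicing factor of the U1 snRNP type, read 1090, 1161 and 1246 at 30 min, then 1166, 1036 and 1128 at 60 min and 672, 695 and 640 at 180 min. The 30 and 60 min arrays overlapped and lay far above those at 180 min, and the change was -0.79 ± 0.14 (limma adjusted p = 0.00844; 0.065 without both arrays that stand apart). PABPN1, which binds poly(A) tails in the nucleus, read 739, 766 and 566 at 30 min and 466, 433 and 430 at 180 min and fell by 0.61 ± 0.12 (limma adjusted p = 0.0101) on 1 of 3 probe sets, the others changing by -0.21 and -0.05. Its call was lost without replicate 2 at 30 min or replicate 3 at 180 min. PRPF39, a U1 snRNP component, read 430 to 492 at 30 min and 328 to 346 at 180 min and fell by 0.45 ± 0.11 (limma adjusted p = 0.0429). It was already at 299, 365 and 383 at 60 min, and its call was lost in 5 of the 6 single-array omissions (adjusted p up to 0.164). Genes of RNA metabolism went both ways: PAPD5, DAZAP1 and NOP2 rose by 0.63, 0.57 and 0.52, with the other probe set of PAPD5 at 0.28. These genes were set side by side after their values were seen, with no list or test of the group.

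Further genes that fell are regulators of the cytoskeleton, membranes and enzymes. ROCK1, a kinase that drives actomyosin contraction, read 107, 94 and 77.6 at 30 min and 29.9, 34 and 34 at 180 min and fell by 1.15 ± 0.26 (limma adjusted p = 0.0355). DYNC1I2, an intermediate chain of the dynein motor, fell by 1.24 ± 0.24 (limma adjusted p = 0.0113), while its other probe set changed by -0.28. Its arrays at 180 min, 36.3 to 47.2, lay below every CA0 array, the lowest of which was at 180. HLCS, the ligase that attaches biotin to carboxylases, fell by 1.04 ± 0.21 (limma adjusted p = 0.0157), with its other probe sets at -0.81 and -0.35. POMT2, a protein O-mannosyltransferase, and ATL2, a GTPase that fuses endoplasmic reticulum tubules, fell by 0.79 and 0.70. Each of these calls was lost without 3 or more of the 6 arrays taken singly, with adjusted p by limma up to between 0.0682 for DYNC1I2 and 0.266 for ATL2.

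**Figure D2:**
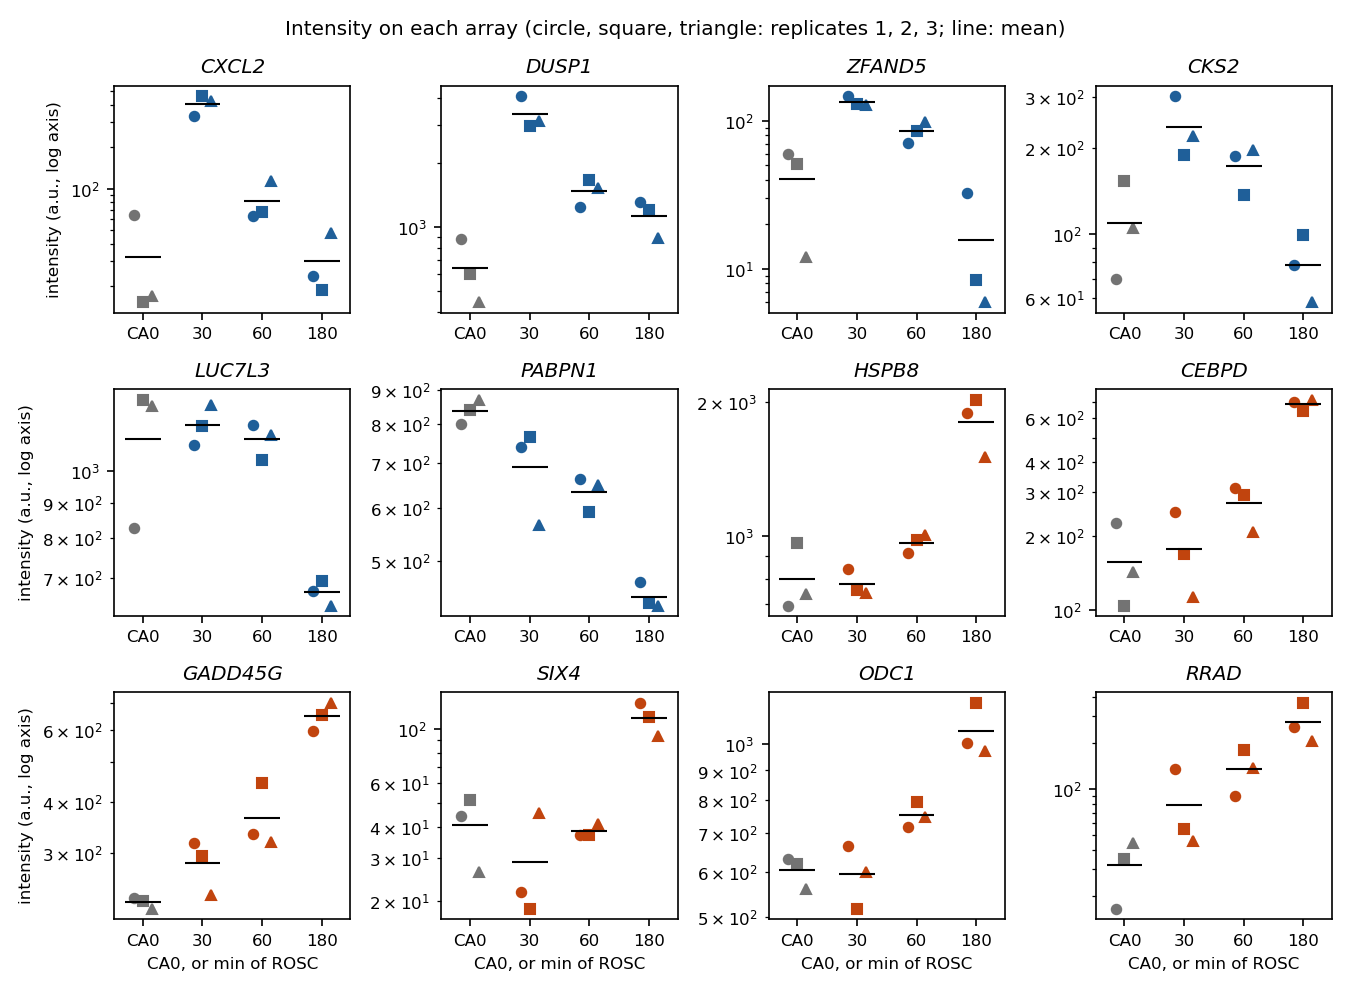
Intensity on each array, on a log axis, of 6 genes that fell (first 6 panels, CXCL2 to PABPN1) and 6 that rose (last 6, HSPB8 to RRAD) in the CA0 control and at 30, 60 and 180 min of ROSC with saline; symbols are replicates and lines the means of 3 arrays. In all 12 panels the 30 and 180 min arrays do not overlap; CXCL2 and DUSP1 are already low at 60 min, while LUC7L3 and SIX4 are still near their 30 min level.

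Among transcription factors, CEBPD, a C/EBP factor known for its induction in acute inflammation, rose most of the named genes. Its intensities were 250, 168 and 112 at 30 min, then 313, 293 and 207 at 60 min and 697, 642 and 715 at 180 min. All arrays at 180 min lay far above every array at 30 or 60 min. The change was 1.92 ± 0.34 (limma adjusted p = 0.00453), held its call in each single-array omission (adjusted p up to 0.0342), and was 2.16 without both arrays that stand apart. The CA0 arrays, at 224, 104 and 142, overlapped those at 30 min. SIX4, a homeobox factor, was dim at 30 min, with 21.8, 18.6 and 45.6, and at 60 min, with 37, 37.1 and 41. It read 127, 111 and 93.1 at 180 min and rose by 1.54 ± 0.24 (limma adjusted p = 0.00207). KLF10, a factor induced early by TGF-beta, rose by 0.85 ± 0.20 (limma adjusted p = 0.0473), and this call was lost without any 1 of 5 of the 6 arrays (adjusted p up to 0.267). ZNF263, a zinc finger factor, rose by 0.84.

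The chaperone with the firmest change was HSPB8, a small heat shock protein that works with BAG3 in the removal of misfolded proteins by autophagy. It read 843, 752 and 741 at 30 min, then 916, 977 and 1003 at 60 min and 1891, 2029 and 1509 at 180 min. The 30 min arrays lay within the range of the CA0 arrays (696 to 962) and the 180 min arrays far above it. HSPB8 rose by 1.19 ± 0.15 (limma adjusted p = 0.000163), with adjusted p between 0.000126 and 0.00403 over the single-array omissions. HSPA6, an inducible member of the HSP70 family, rose by 0.86 ± 0.20 (limma adjusted p = 0.0333). It had already reached 2673, 2133 and 3602 at 30 min against 138, 128 and 81.1 in CA0, and read 4886, 5731 and 4404 at 180 min. Its call was lost without any 1 of 5 of the 6 arrays (adjusted p up to 0.128) and without both arrays that stand apart (0.164). BAG3 read 1764, 1010 and 1215 at 30 min and 2217, 3034 and 2573 at 180 min, without overlap, but its change of 0.99 ± 0.30 did not pass (limma adjusted p = 0.132). HSP70.2 was high at both times, with 11913, 8250 and 10715 at 30 min and 11079, 11872 and 10122 at 180 min (CA0 613 to 3543), and its 3 probe sets changed by 0.03 to 0.11. DNAJB1, an HSP40 co-chaperone, changed by -0.46 ± 0.28 (limma adjusted p = 0.491).

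GADD45G, a member of a small family that activates stress kinases and slows the cell cycle, read 318, 295 and 236 at 30 min, then 335, 444 and 320 at 60 min and 597, 652 and 700 at 180 min. It rose by 1.16 ± 0.18 (limma adjusted p = 0.00207) and kept its call in each single-array omission. GADD45B read 281, 348 and 295 at 30 min and 623, 570 and 683 at 180 min and rose by 0.99 ± 0.19 (limma adjusted p = 0.0101; 0.0686 without replicate 3 at 180 min), with its second probe set at 0.60 (adjusted p = 0.308). GADD45A, the third of the family, changed by 0.55 ± 0.19 and did not pass (limma adjusted p = 0.21); its lowest array at 30 min, at 144, was still above the highest CA0 array, at 70.8. DDIT3, the factor CHOP of the integrated stress response, read 456, 338 and 486 at 30 min and 793, 761 and 633 at 180 min. It rose by 0.76 ± 0.15 (limma adjusted p = 0.0102), a call lost without replicate 2 at 30 min or replicate 1 at 180 min (adjusted p up to 0.0717).

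PIM3, a survival kinase, read 238, 183 and 188 at 30 min and 365, 323 and 412 at 180 min and rose by 0.81 ± 0.15 (limma adjusted p = 0.00793; 0.0607 without replicate 3 at 180 min). DYRK3, a kinase that dissolves stress granules, rose on both of its probe sets, by 1.17 ± 0.22 and 1.11 (limma adjusted p = 0.00906 and 0.00959), and the first lost its call without replicate 1 at 30 min (adjusted p = 0.0621). RRAD, a small GTPase of the RGK family that inhibits calcium channels, read 135, 54.7 and 46 at 30 min, then 90.1, 179 and 137 at 60 min and 253, 365 and 207 at 180 min, above the CA0 arrays of 16.5 to 44.2. It rose by 1.70 ± 0.37 (limma adjusted p = 0.0258), a call lost without any 1 of 5 of the 6 arrays (adjusted p up to 0.0979) and with the 3'/5' covariate (0.0665). IER5, an early response gene, rose by 0.69 ± 0.16 (limma adjusted p = 0.0376), with its other probe set at 0.18. Its call was lost without any 1 of 5 of the 6 arrays (adjusted p up to 0.178).

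Among enzymes and secreted proteins, ODC1, which makes putrescine as the entry step of polyamine synthesis, read 664, 517 and 600 at 30 min and 1005, 1181 and 971 at 180 min and rose by 0.81 ± 0.13 (limma adjusted p = 0.00289). CRISPLD2, a secreted cysteine-rich protein, read 80.6, 87.9 and 92.3 at 30 min, then 187, 172 and 111 at 60 min and 255, 167 and 193 at 180 min. Its change was 1.08 ± 0.18 (limma adjusted p = 0.00333), and without both arrays that stand apart the adjusted p was 0.0553. FST, follistatin, an activin-binding protein, read 8.75, 32.4 and 33.9 at 30 min, then 61.3, 58.9 and 49 at 60 min and 83, 69.3 and 103 at 180 min, and rose by 1.36 ± 0.29 (limma adjusted p = 0.0205), a call lost without replicate 1 at 30 min, or without replicate 1 or 3 at 180 min (adjusted p up to 0.141). FUCA2, a fucosidase, rose by 1.12 ± 0.24 (limma adjusted p = 0.0213) and, like HSPA6, was above all CA0 arrays (69.7 to 82.4) from 30 min on, where it read 322, 190 and 222. Its call was lost without any 1 of 4 of the 6 arrays (adjusted p up to 0.0934). PLAT, tissue plasminogen activator, rose by 0.69 ± 0.16 (limma adjusted p = 0.0399), a call lost in each of the 6 single-array omissions. CD93, a receptor of endothelium and myeloid cells, read 460, 431 and 293 at 30 min and 662, 738 and 791 at 180 min and rose by 0.88 ± 0.17 (limma adjusted p = 0.0101). Its 60 min arrays, 435, 410 and 309, overlapped those at 30 min, and its call was lost without replicate 3 at 30 min or replicate 3 at 180 min (adjusted p up to 0.0676). The summed intensity of the 13 endothelial marker genes on the array, tested or not, ran from 3070 to 4429 at 30 min. It ran from 4087 to 4698 at 180 min, and its part in the values of PLAT and CD93 was not tested.

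The remaining named genes that rose changed by between 0.47, for ARPC5L, a subunit of the Arp2/3 actin complex, and 1.28, for PLEK, pleckstrin. They include C1H15orf48 (1.21), the GMP reductase GMPR2 (1.14, with its other probe set at 0.23), RAB19 (0.93), SWAP70 (0.92), TSKU (0.91), TAGLN2 (0.76), BZW2 (0.76) and the lamin LMNA (0.71). Smaller rises were those of DIEXF (0.67, with its other probe set at -0.17), PAPD5 (0.63, with its other probe set at 0.28), B4GALT5 (0.62, with its others at 0.12 and 0.13), DAZAP1 (0.57), NOP2 (0.52) and the dynein-associated NUDC (0.51). TSKU, BZW2 and LMNA changed more on another probe set, by 1.38, 0.83 and 1.01, which did not pass (limma adjusted p = 0.0603, 0.0603 and 0.221). None of the genes in this paragraph kept its call in all 6 single-array omissions.

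Over the 17 pathway lists 10 of 310 genes tested were called (3.23%), beside 0.655% of all probe sets, and no list had more than 1 member called in a direction when 1 probe set stood for each gene. The lists were chosen with results of these data known, so nothing is read from the higher share. The list of AP-1, EGR and NR4A factors also holds genes of the KLF family. Of its 12 members tested, KLF10 rose and none fell, and the median change was 0.23 beside -0.01 over all probe sets. FOS, at 4648, 3675 and 4003 at 30 min and 2157, 3221 and 2915 at 180 min, did not overlap between the times, yet its change of -0.58 ± 0.41 did not pass (limma adjusted p = 0.544). ATF3, a stress-induced factor, was at 643, 454 and 686 and then 224, 316 and 346, with a change of -0.97 ± 0.30 (limma adjusted p = 0.144). KLF4 changed by -1.11 (adjusted p = 0.126) and EGR1 by 0.05 to 0.58 over its 3 probe sets, none of them past the test by limma. At 180 min ATF3 was still far above its CA0 arrays of 23.9 to 39.5, and FOS above its CA0 arrays of 503 to 1605.

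Of 14 early feedback and signalling genes, DUSP1 fell and IER5 rose, and the median was -0.36, with 3 of 14 above 0; over all probe sets of the list it was -0.23. The lowest change of the list, -1.64, was that of a member not called. RGS1, which ends G protein signals, changed by -1.36 (limma adjusted p = 0.115), the matricellular gene CYR61 by -0.95 (0.144), and ZFP36, which speeds the decay of AU-rich mRNAs, by -0.62 (0.532). Of 11 chemokines, cytokines and adhesion genes tested of 18 on the array, CXCL2 was the only one called, and the median was 0.19. The cytokines CXCL8, IL1A, IL6 and TNF were below the filter on dim probe sets. Of 8 acute phase genes, CEBPD rose, and TIMP1, an inhibitor of metalloproteinases, changed by 0.93 ± 0.23 and just missed the threshold (limma adjusted p = 0.0593); TIMP1 passed under 5 of the other settings, without replicate 1 at 30 min among them. None of 8 NF-kB genes and none of 12 glucocorticoid targets was called, with medians of 0.17 and -0.25. Without both arrays that stand apart these medians were 0.26 and -0.04.

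Over all probe sets tested 47.8% had a change above 0. Among small heat shock proteins and BAG genes HSPB8 alone was called of 10, with 8 above 0 and a median of 0.31. Among the larger chaperones HSPA6 alone was called of 23, with 18 above 0 and a median of 0.17. In the integrated stress and unfolded protein response DDIT3 alone was called of 18, with 15 above 0 and a median of 0.28; the endoplasmic reticulum oxidoreductase PDIA4 changed by 0.45 ± 0.12 (limma adjusted p = 0.0896). Of 10 growth arrest and p53 genes GADD45G was called on the probe set that stood for each gene, GADD45B on its other one, and the median was 0.26. Of 22 vascular, matrix and coagulation genes PLAT was called, with a median of 0.23.

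The other pathway lists had no member called by limma, with 0 of 18 hypoxia genes, 0 of 21 oxidative defence genes, 0 of 14 synaptic genes, 0 of 10 nitric oxide and cGMP genes, 0 of 44 respiratory chain genes and 0 of 57 cytosolic ribosomal protein genes. Their medians were 0.05, -0.01, -0.16, 0.09, 0.03 and -0.08 in that order. Without both arrays that stand apart they were 0.10, 0.06, -0.04, -0.02, 0.03 and -0.07. Of the ribosomal protein genes 8 of 57 were above 0, and the lowest change was -0.33. Without replicate 1 at 30 min 23 of 57 were above 0, with a median of -0.02. Without both arrays that stand apart it was 9 of 57, with a median of -0.07. VEGFA, the vascular growth factor, changed by 0.61 on 1 probe set (limma adjusted p = 0.121), with the others at 0.13 and -0.13. HMOX1, heme oxygenase, changed by 0.27 ± 0.30 (limma adjusted p = 0.723).

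**Figure D3:**
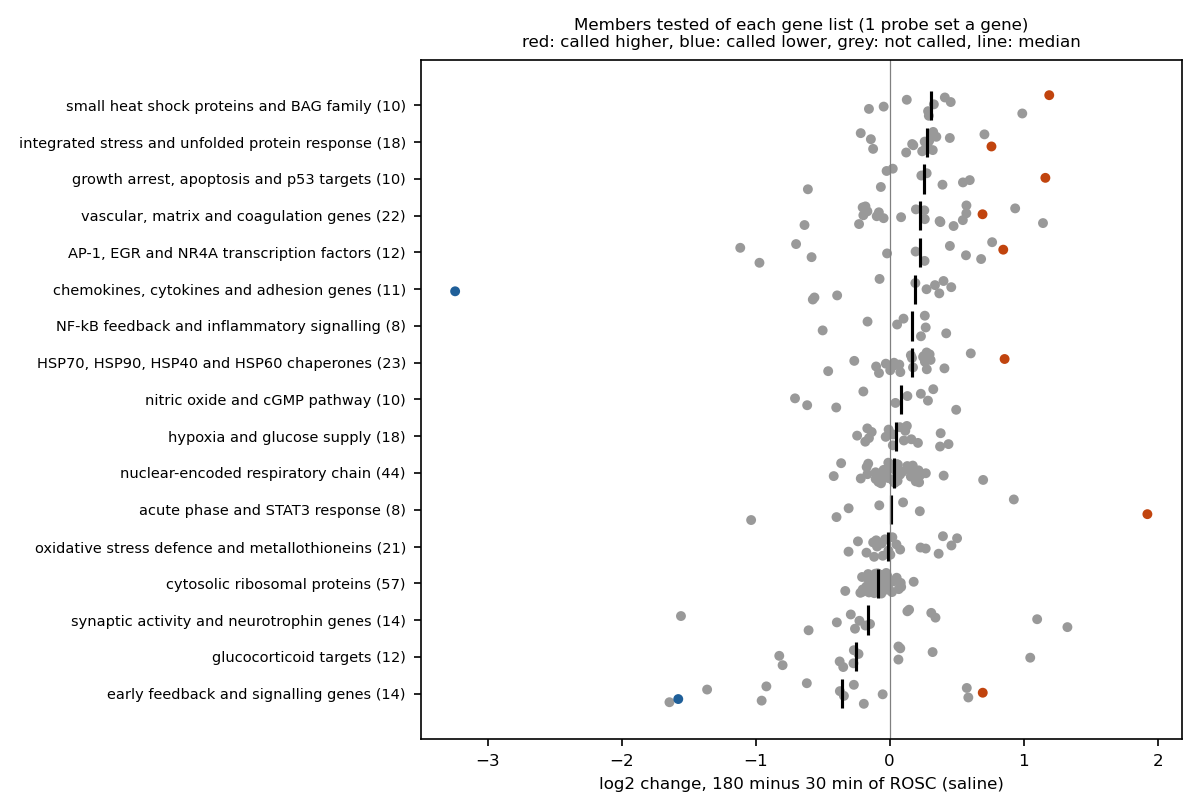
Log2 change between 30 and 180 min (horizontal axis) of every tested member of 17 gene lists (rows, with the number tested in brackets), 1 probe set a gene; red and blue points were called higher or lower, grey points were not called, and black lines are medians. The medians run from -0.36 for early feedback genes to 0.31 for small heat shock and BAG genes, and CXCL2 lies alone at -3.24.

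Marker genes of the cell types of cortex were mostly not called, and no marker of oligodendrocyte precursors was on the array under its symbol. None of 11 neuronal, 9 astrocyte, 8 oligodendrocyte, 11 endothelial, 10 smooth muscle and pericyte, 7 meningeal, 2 choroid plexus and 4 red cell genes was called in either direction, and the medians of these lists, apart from the choroid plexus pair, lay between -0.37 for red cells and 0.14 for neurons and endothelium. Without both arrays that stand apart the red cell median was -0.11 and the neuronal median 0.05. The neuronal median was -0.04 without replicate 1 at 30 min alone. Of 10 genes of neutrophils and other leukocytes on the array, 2 passed the filter, and S100A8, S100A9 and S100A12 did not, which were too dim to be tested. Among microglia and macrophage genes, PLEK rose by 1.28 ± 0.31 (limma adjusted p = 0.0473) from 134, 64.6 and 119 to 325, 230 and 263, while 3 of 10 were above 0 and the median of the list was -0.60. The median was -0.22 without replicate 1 at 30 min and -0.20 without both arrays that stand apart. Without replicate 3 at 30 min it was -0.95, and AIF1, C1QA and C1QC, which were not called with all arrays, were called lower (limma adjusted p = 0.0384, 0.0384 and 0.0342). The call of PLEK was lost without any 1 of 5 of the 6 arrays (adjusted p up to 0.178). The summed intensity of the 11 microglia genes on the array, tested or not, ran from 3165 to 7961 at 30 min. It ran from 3104 to 3752 at 60 min and from 2836 to 3459 at 180 min. The value of 7961 belonged to replicate 1 at 30 min. On that same array the neuropeptide genes CCK and NPY read 354 and 89 against 4847 to 5713 and 602 to 1446 on the other 2 arrays at 30 min. Without that array 50 probe sets were called higher and 31 lower, of which 34 and 20 were among the original calls.

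The 60 min group lay closer to the 30 min than to the 180 min group for most called probe sets. Its place was computed as the share of the log2 difference between 30 and 180 min already present at 60 min. The median place was 0.26 among the 70 called higher and 0.30 among the 40 called lower. By 60 min array the medians were 0.25, 0.31 and 0.21 for those called higher and 0.34, 0.43 and 0.22 for those called lower. The log2 3'/5' ratios of these arrays, in the same order, were 1.30, 2.30 and 0.98, which rank as the places do. The part of RNA quality in the places was not tested. The 60 min mean was nearer to that at 30 min for 56 of 70 and 33 of 40, and it lay between the other 2 means for 63 of 70 and 40 of 40. The place of CXCL2 was 0.66 and that of DUSP1 0.76, and PRPF39, at 0.90, had nearly reached its 180 min level at 60 min. CKS2 (0.29) and ZFAND5 (0.25) stood near the median, and LUC7L3 (0.09), POMT2 (0.08) and HLCS (0.04) had hardly changed. Among genes that rose, SWAP70 (0.71), CRISPLD2 (0.66) and FST (0.65) were the furthest along of those with the larger changes, CEBPD (0.32), GADD45G (0.30) and HSPB8 (0.26) stood near the median, and LMNA (-0.04), CD93 (-0.03) and ZNF263 (0.02) had not moved. Since calls were chosen on the 30 and 180 min arrays, these places are a description, and no test was made of them.

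**Figure D4:**
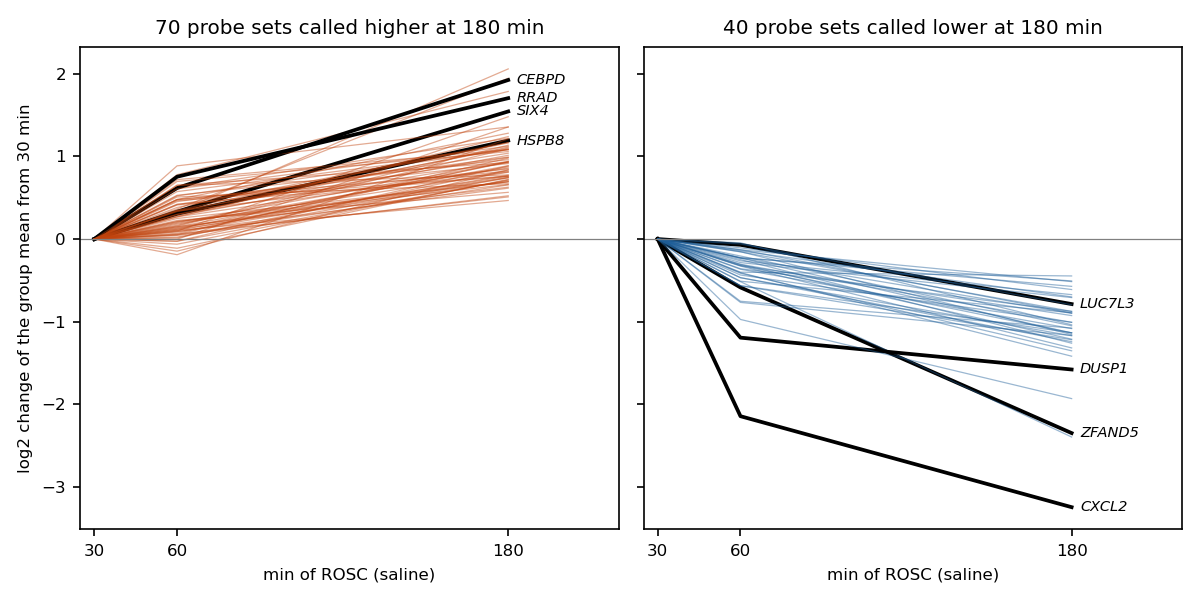
Change of each called probe set's group mean from its 30 min level, as log2(intensity + 16), at 60 and 180 min of ROSC with saline; the left panel holds the 70 called higher and the right the 40 called lower, with 4 named genes in black in each. At 60 min most lines are nearer to their 30 min than to their 180 min level, with median places of 0.26 and 0.30 of the way. CXCL2 and DUSP1 have by then made most of their fall.

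Beside the controls, the called probe sets fell into several courses. Of the 70 called higher, 69 had a 180 min mean above every CA0 array. At 30 min the mean of 11 of them was already above the CA0 arrays, as for HSPA6 and FUCA2, 30 were within their range, as for HSPB8 and CEBPD, and 29 were below it. Of the 40 called lower, 22 were above the CA0 arrays at 30 min, and of these 14 were below them at 180 min, 6 within them and 2 still above. Another 15 were within the CA0 range at 30 min and below it at 180 min, and 3 were below it at both times. CXCL2 was above and then within the CA0 range, and DUSP1 above it at both times. The CA0 range rests on 3 arrays. Their log2 3'/5' ratios, 1.66 to 1.92, lay above those at 30 min (1.22 to 1.35) and within those at 180 min (1.39 to 2.60). The part of RNA quality in these courses was not tested. The share of all probe sets tested in each course was not computed. The called probe sets were chosen by their 30 and 180 min arrays, so these counts are a description.

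The methylene blue arm shares no array with the saline arm and gave the same direction for nearly all of the called probe sets. Its log2 3'/5' ratio was also higher at 180 min, at 0.97 to 1.20 in MB180 against 0.85 to 0.88 in MB30. The part of RNA quality in the shared direction was not tested. The sign was the same for 69 of 70 (98.6%) and 38 of 40 (95%), against 62.5% of all probe sets tested. The MB180 arrays lay wholly above the MB30 arrays for 50 of the 70, and wholly below for 29 of the 40, where 5.42% and 5.77% of all probe sets tested did so. In that arm 48 probe sets were called (0.286%), 31 higher (0.185%) and 17 lower (0.101%), with 1159 (6.9%) at an unadjusted p under 0.05. Of those called, 31 were also called in the saline arm in the same direction, which is 64.6% of the calls with methylene blue and 28.2% of those with saline. The median change of the 70 was 0.62 and of the 40 -0.57 with methylene blue. The change was larger with saline for 54 of 70 and 37 of 40, and the probe sets were chosen by their change with saline.

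HSPB8 changed by 1.14 ± 0.15 with methylene blue (limma adjusted p = 0.000184), from 1010, 1247 and 1020 to 2347, 2283 and 2626. CEBPD changed by 2.32 ± 0.34 (limma adjusted p = 0.000594), from 214, 192 and 158 to 955, 1022 and 1022. CXCL2 changed by -2.45 ± 0.43 (limma adjusted p = 0.00595), from 473, 275 and 404 to 21.2, 106 and 64.6. These 3 genes were called in the same direction in both arms, as were DUSP1, SIX4, RRAD, HSPA6, FUCA2, PABPN1, PAPD5, NUDC, NOP2, IER5, GMPR2 and C1H15orf48.

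The difference between the arms was tested directly, as the saline change minus the methylene blue change, and limma called 0 of 16799 probe sets (0%; smallest adjusted p 0.999). At an unadjusted p under 0.05 there were 625 (3.72%), fewer than the 839.95 that 5% of the tests would give. The values of 4 called genes follow, chosen after their values were seen. DIEXF changed by 0.67 with saline and -0.19 with methylene blue, a difference of 0.86 ± 0.21 (unadjusted p = 0.000437 by limma). FST, at 53.1, 62.2 and 95.5 in MB30 and 84.9, 49.7 and 80.9 in MB180, changed by 0.03 there, a difference of 1.32 ± 0.40. ROCK1 read 46.3, 59.8 and 75.8 in MB30 and 36.8, 89.3 and 61.2 in MB180, and the difference between the arms was -1.15 ± 0.37. HSPA6 changed by 1.54 with methylene blue, a difference of -0.69 ± 0.28 (unadjusted p = 0.0198 by limma).

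**Figure D5:**
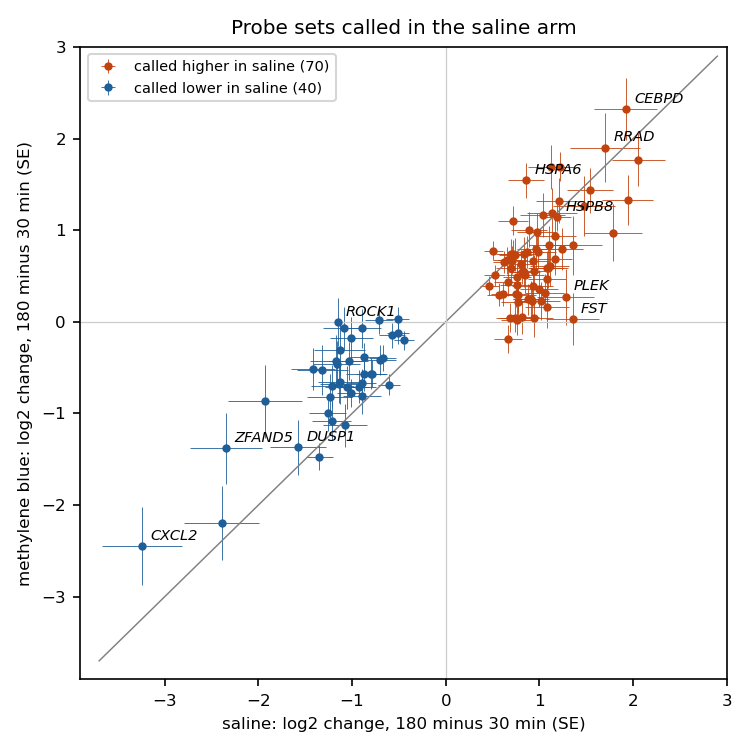
Log2 change between 30 and 180 min with saline (horizontal axis) against that with methylene blue (vertical axis) for the 110 probe sets called in the saline arm; bars are standard errors, and the diagonal marks equal change. Nearly all points lie in the quadrants of equal sign (69 of 70 and 38 of 40), and FST, PLEK and ROCK1 lie near 0 on the vertical axis.

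Across the 9 saline arrays, the named genes whose log2 values went most closely with each of 3 genes were listed as a description; these arrays include those that chose the genes, and a shared time course is enough to give a high value. With CXCL2 the highest Pearson correlations were those of DUSP11 (0.94), CWF19L2 (0.93) and AGK (0.92). With CEBPD they were GADD45G (0.97), LOC100518827 (0.97) and PIM3 (0.95). With HSPB8 they were CSRP2 (0.97), ODC1 (0.96) and NCOA7 (0.93). Of these 9, CWF19L2, AGK, LOC100518827, CSRP2 and NCOA7 were not called between 30 and 180 min, with changes of -0.33, -0.46, 0.87, 0.54 and 0.62 and adjusted p by limma of 0.353, 0.302, 0.0527, 0.22 and 0.109.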

How the data were processed

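RNA of pig cerebral cortex was hybridised to 1-colour Affymetrix porcine arrays. The authors deposited 1 intensity per probe set and array, on a linear scale, made with GCOS per the submitters' processing notes; the sources used here give neither its version nor its signal method. All arrays have the same trimmed mean, so changes are relative to it. Of 24123 probe sets, 124 controls were left out, and of the other 23999, 10110 had 1 gene symbol, 157 several and 13732 none in the platform annotation; 9973 matched the reference table by gene ID, and no symbol differed.

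Values were taken as log2(intensity + 16) of the deposited intensities. Probe sets under the 30th percentile of mean level over all 30 arrays (an intensity of about 29.5) were left out, leaving 16799. The model had 1 mean for each of the 10 groups and 20 residual degrees of freedom (limma 3.58.1 in R 4.3.3, lmFit and eBayes with an intensity trend, two-sided), and p-values were adjusted by Benjamini-Hochberg over all probe sets tested, at 0.05. The fit was tested on simulated data with independent noise of the same size on every array. These held no array that stands apart and no difference in RNA quality, so that test does not cover them. Arrays give no read depth, so precision rests on 3 arrays a group.

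Named genes are the 15 symbols with the largest change in each direction among called probe sets without overlap (14 genes fell), the 3 members of each of 17 pathway lists with the smallest p, and a fixed set of 20 genes; genes called beyond these are added. For a gene named by its call, the called probe set with the largest change stands for it. For a gene of the fixed set it is the probe set with the largest change, and for a list member the one with the highest mean. Another 11 lists hold cell type markers. Members, lists and rules were chosen with earlier results of these data known. The alternatives were other offsets, filters, scalings and fits, a replicate block, and each array left out; the 3'/5' covariate, the omission of both arrays that stand apart and the fit to the saline groups alone were added after seeing the data. A gene that fell is not reported here. No sequence is printed.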

Additional observations from a re-analysis of the deposited data

How the results depend on the processing

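The sign of every called probe set held under all settings that were run over the whole comparison. The count called higher (70) and lower (40) moved by over 1.5 times under these settings, higher and lower in turn: 176 and 106 with array weights, 39 and 25 with the 3'/5' ratio as a covariate, 17 and 11 without both arrays that stand apart, 6 and 8 in a fit to the 3 saline groups alone, and 1 and 3 in a fit to the compared groups alone, where 4 degrees of freedom remain. Leaving out 1 array gave 23 to 66 higher and 18 to 48 lower, with 22 to 46 and 15 to 30 original calls among them. With array weights 63 of the 176 and 36 of the 106 were original calls. The methylene blue arm, with 48 calls, gave 76 under quantile normalization, 73 without both saline arrays that stand apart, 6 in a fit to the compared groups alone, and 20 to 60 with 1 of its arrays left out. The difference between the arms had 0 calls by limma in every setting run, beside 625 at an unadjusted p under 0.05 in the model as reported. With the replicate number as a block 71 were called higher and 43 lower, of which 65 and 37 were among the original calls. Deviations of SAL30 and SAL180 arrays with the same number correlated at -0.10, -0.11 and -0.34, which gave no sign of pairing by number. With 3 arrays a group, a batch shared by number cannot be told from these values. An offset of 1 or 64 gave 73 and 47 or 84 and 48, no filter 60 and 32, a filter at the 50th percentile 59 and 31, and quantile normalization 78 and 37. Of the 49 named genes called, 10 kept the call in each single-array omission, 25 lost it with the covariate and 38 without both arrays. Of 56 named genes not called, 10 were called in some setting. Changes of sign were seen in HIF1A (0.025 with array weights and 0.12 without both arrays), NPY (-0.12 and -0.17 in the same settings), LDHA (-0.090 to 0.62 over the single-array omissions, negative without replicate 1 at 30 min) and HSP70.2 (-0.038 to 0.23, negative without replicate 2 at 30 min), none of them called. The cause was not tested. Genes dimmer than the filter, among them most leukocyte markers, could not be assessed.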
